A study of Mus musculus with 6 samples.

Results

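The unfolded protein response and endoplasmic reticulum (ER) folding genes described here are 33 named genes, taken by the probes whose RefSeq accession names them. They were chosen by function, with earlier results of these data known. They are 33 of 19750 gene symbols with a RefSeq-named probe on the array, and 32 of them could be tested. The arrays measured mRNA of mouse pancreatic islets, the clusters of hormone cells in the pancreas, in 3 groups of 2 arrays each. Trsp-Ins1KO islets came from mice with both Trsp alleles floxed and Ins1-Cre, a Cre driven from the Ins1 insulin gene. Trsp-RIPKO islets came from mice with the same floxed alleles and RIP-Cre, a Cre driven by a rat insulin promoter, which is also known to act in some neurons of the hypothalamus. TrspFF islets carried the floxed alleles and no Cre, so that no group was wild type at Trsp and none carried a Cre without the floxed alleles. The labels give every mouse as a male of 16 weeks on the ICR background. The gene Trsp codes for the transfer RNA of selenocysteine, and the series' design text states that its loss raises oxidative stress. No probe annotated to Trsp was found, and the genotypes were not checked on the deleted gene.

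Beta cells fold very large amounts of proinsulin in the ER, where chaperones bind the new chain and disulfide isomerases join its cysteines. When unfolded protein builds up, the membrane sensors IRE1 (Ern1), ATF6 (Atf6) and PERK (Eif2ak3) start the unfolded protein response. IRE1 splices the mRNA of the transcription factor Xbp1, ATF6 is cut to release a transcription factor, and PERK restrains translation and so raises ATF4 and its targets. The 3 branches together are known to raise chaperones, folding enzymes and ER-associated degradation, the route that draws misfolded proteins out of the ER for destruction.

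Several facts about the arrays bear on every value below. Processed intensity had a 75th percentile of 121.9 and 110.7 for Trsp-Ins1KO, 215.2 and 203.0 for Trsp-RIPKO and 247.2 and 218.1 for TrspFF, and 0 spots were saturated. Spike-in probes, scaled like all others, had a median of 1.53 and 1.56 (log2) in Trsp-Ins1KO, 0.45 and 0.50 in Trsp-RIPKO and 0.13 and 0.35 in TrspFF. Slide 1 held Trsp-Ins1KO and TrspFF and slide 2 held Trsp-RIPKO alone, with a scanner quality status of "evaluate" for both of its arrays, so the slide and the Trsp-RIPKO genotype cannot be told apart. Xist, the RNA of the inactive X chromosome of females, was well above background on 0 of 2 Trsp-Ins1KO arrays, 2 of 2 Trsp-RIPKO arrays and 2 of 2 TrspFF arrays, although all were labelled male. The Y-linked genes Ddx3y and Eif2s3y were well above background on all 6 arrays, but their levels differed by group. Ddx3y (log2 minus the array's 75th percentile) was at 0.96 and 0.78 in TrspFF, 0.75 and 0.51 in Trsp-Ins1KO and -0.53 and -0.44 in Trsp-RIPKO. Eif2s3y had the same order of groups. On the same scale Xist was at -0.56 and -0.32 in TrspFF, -5.79 and -5.60 in Trsp-Ins1KO and 1.05 and 1.34 in Trsp-RIPKO. Whole groups are concerned, so no value without these arrays can be given, and the part of sex in the results was not tested.

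In the authors' deposited table of log2 values, the columns named TrspFF held the scanner values of the Trsp-Ins1KO files and the columns named Trsp-Ins1KO held those of the TrspFF files (r = 1 over 19486 probes, against -0.268 and -0.468 with the files of the same name). The Trsp-RIPKO columns matched their own files. Every direction below follows the scanner files. Under the table's names each Trsp-Ins1KO against TrspFF change has the opposite sign, and the Trsp-RIPKO arrays would be set against those filed as Trsp-Ins1KO. The labels do not state whether a group's arrays were hybridised with RNA of different mice. The p-values therefore reflect only how far these samples spread, which may be technical. In whole islets, fewer cells of a type and less RNA per cell cannot be told apart.

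The islet label was checked on markers of hormone cells, and those of other cells were followed because folding genes are also high in other secretory cells. All 11 beta-cell markers were well above background on every array. Against TrspFF 6 of them rose and 3 fell in Trsp-Ins1KO (Slc2a2 by 0.71, Slc30a8 by 0.75 and Pcsk1 by 0.25, log2), and 0 rose and 4 fell in Trsp-RIPKO (among them Ucn3 by 1.21 and Nkx6-1 by 0.57). Their summed level, in units of each array's 75th percentile, was 5929 to 6499 in Trsp-Ins1KO, 3654 to 3913 in Trsp-RIPKO and 3297 to 3693 in TrspFF. The hormone probes of Ins1, Ins2 and Iapp make up most of it, and it was taken in this scaling only. The median of the beta-cell markers in Trsp-Ins1KO against TrspFF was 0.39. It was 0.07 with normexp background correction (5 higher, 5 lower), 0.04 with quantile normalization (4 and 2) and 0.32 with median scaling (5 and 2). All 9 markers of alpha, delta and PP cells, the other hormone cells, were also above background on every array, and 0 rose and 6 fell in Trsp-Ins1KO (median -0.55) and 1 rose and 4 fell in Trsp-RIPKO. Their sum was 1031 to 1117 in Trsp-Ins1KO, 1049 to 1118 in Trsp-RIPKO and 1552 to 1570 in TrspFF. Of 19 markers of acinar cells, the enzyme-secreting cells around islets, 17 were tested, and 14 rose and 1 fell in Trsp-Ins1KO against TrspFF, while 15 rose and 0 fell in Trsp-RIPKO against TrspFF. Their summed level was 22.2 to 24.0 in Trsp-Ins1KO, 24.7 to 26.9 in Trsp-RIPKO and 16.1 to 16.5 in TrspFF. The acinar regulator Ptf1a was well above background on no array. The 7 plasma- and B-cell markers with a probe were well above background on no array. The summed level of 7 endothelial markers was 79.1 to 83.6, 55.5 to 55.7 and 42.4 to 43.4 in Trsp-Ins1KO, Trsp-RIPKO and TrspFF, and that of 7 fibroblast markers was 4.80 to 5.01, 19.4 to 19.6 and 12.6 to 13.1 in the same order. Of 10 markers of intestine, 5 were tested, of which 2 rose in Trsp-Ins1KO and 4 in Trsp-RIPKO and 0 fell. Fabp1, the fatty acid binder of gut and liver, was well above background on 2 of 2 Trsp-Ins1KO, 2 of 2 Trsp-RIPKO and 0 of 2 TrspFF arrays. Cdx1, Cdx2, Mmp7 and Alpi were above background on no array. The part of these cells in the results was not tested.

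Many members are known targets of the factors ATF6 and XBP1 through the ER stress response element (ERSE), written as CCAAT, then 9 bases of any kind, then CCACG. A window from 250 bases before to 50 bases after the annotated start was read for 28 members from RefSeq (GRCm38.p6), on both strands. The element occurred in 10 of the 28 members (35.7%), counted by gene. Over all genes it occurred in 37 of 27025, with these 10 members among the 37, and in 39 of 32851 windows (0.119%). The 10 were Hspa5, Hsp90b1, Dnajc3, Creld2, Calr, Canx, Pdia6, Ero1b, Syvn1 and Derl3. The related ERSE-II, which joins ATTGG to CCACG with 1 base between, occurred in 2 members (7.14%), Dnajb11 and Herpud1. Over all genes it occurred in 12 of 27025, and in 0.0365% of all windows. The XBP1 motif TGACGTGG occurred in 0 members, in 193 of 27025 genes and in 0.676% of all windows. A match is a description of the letters and does not show that a factor binds. The windows of 4 members are shown because they hold the same element and belong to genes that rose (Derl3, Syvn1), fell (Ero1b) and were not called (Hspa5) in Trsp-Ins1KO against TrspFF. Each runs 5′ to 3′ along the gene, with the ERSE in capitals, in its reverse complement for Derl3 and Ero1b.
Derl3, chr10:75893148-75893447, plus strand: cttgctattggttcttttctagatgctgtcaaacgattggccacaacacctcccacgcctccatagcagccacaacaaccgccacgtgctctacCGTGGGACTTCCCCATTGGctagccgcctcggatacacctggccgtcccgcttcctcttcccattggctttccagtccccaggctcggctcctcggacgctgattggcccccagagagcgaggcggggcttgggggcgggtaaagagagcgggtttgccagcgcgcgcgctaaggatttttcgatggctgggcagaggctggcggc
Syvn1, chr19:6046326-6046625, plus strand: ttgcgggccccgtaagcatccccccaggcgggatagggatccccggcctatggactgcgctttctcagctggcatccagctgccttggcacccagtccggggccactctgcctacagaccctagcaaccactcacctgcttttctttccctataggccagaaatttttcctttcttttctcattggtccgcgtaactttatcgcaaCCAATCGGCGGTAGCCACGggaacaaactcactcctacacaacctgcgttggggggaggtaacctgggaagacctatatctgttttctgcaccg
Ero1b, chr13:12565633-12565932, plus strand: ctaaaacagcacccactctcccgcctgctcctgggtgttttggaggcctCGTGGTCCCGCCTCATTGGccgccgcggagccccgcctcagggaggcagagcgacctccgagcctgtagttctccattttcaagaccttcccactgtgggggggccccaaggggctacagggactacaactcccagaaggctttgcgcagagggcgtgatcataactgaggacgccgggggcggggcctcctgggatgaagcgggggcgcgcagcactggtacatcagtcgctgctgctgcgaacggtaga
Hspa5, chr2:34771840-34772139, plus strand: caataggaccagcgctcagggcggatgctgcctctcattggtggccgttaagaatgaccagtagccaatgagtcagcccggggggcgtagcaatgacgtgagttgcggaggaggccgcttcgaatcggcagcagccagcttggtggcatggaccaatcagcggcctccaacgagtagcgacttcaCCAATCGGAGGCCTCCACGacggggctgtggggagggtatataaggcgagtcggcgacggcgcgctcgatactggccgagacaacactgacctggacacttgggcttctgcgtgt

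The element lay at -156 to -138 from the start in Derl3, at -44 to -26 in Syvn1, at -201 to -183 in Ero1b and at -65 to -47 in Hspa5. For the other members described array by array that hold an element, only the element and 10 bases to each side are given, with ERSE in capitals for Creld2 (reverse complement) and Canx, and ERSE-II in capitals for Herpud1.
Creld2, chr15:88819510-88819548, plus strand: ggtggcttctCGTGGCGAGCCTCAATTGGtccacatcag
Canx, chr11:50325790-50325828, minus strand: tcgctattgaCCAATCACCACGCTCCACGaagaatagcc
Herpud1, chr8:94386367-94386397, plus strand: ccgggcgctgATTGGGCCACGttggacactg

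Each value below is a log2 processed intensity minus the array's 75th percentile, and each difference is a difference of group means on that log2 scale given with its standard error (SE). A gene was called where limma's Benjamini-Hochberg adjusted p over all 19021 genes tested was under 0.05. Normexp background correction, an alternative to this processing, took the same offset of 50 on every array. The arrays' 75th percentiles of processed intensity differed, at 122 and 111 in Trsp-Ins1KO and 247 and 218 in TrspFF. The part of that offset in the normexp values was not tested. All 32 tested members were well above background on all 6 arrays, so that none passed the filter through 1 group alone. Dnajb11, a co-chaperone that hands unfolded chains to BiP, was well above background on 0 of 6 arrays and was not tested.

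In Trsp-Ins1KO against TrspFF, 5 of 8 members of ER-associated degradation and 3 of 6 sensors and regulators were called higher, while BiP and the disulfide isomerases were not called. Of 32 members 12 were called higher (37.5%) and 5 lower (15.6%), and 15 were not called. Of all genes tested 45.9% were called, 23% higher and 22.9% lower. The members' median difference was 0.14, against -0.01 for all genes. The count of members called came to 8 without TrspFF 1 and 7 without TrspFF 2, when the share of all genes called fell to 19.9% and 22.6%. The split was 9 higher and 13 lower with normexp background correction, against 9193 higher and 4764 lower over all genes. In that setting 68.8% of members and 73.4% of all genes were called.

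In Trsp-RIPKO against TrspFF 3 members were called higher (9.38%) and 4 lower (12.5%), and 25 of 32 were not called. In all 21.9% of the members were called, against 36.4% of all genes tested, 18.9% higher and 17.5% lower. With normexp background correction 17 of 32 members (53.1%, 8 higher and 9 lower) and 49.8% of all genes were called, so the order of these shares depends on the background correction. Without that correction the members' median difference was 0.03, against 0.00 for all genes. The count was 1 without TrspFF 1, TrspFF 2 or Trsp-RIPKO 2, 3 without Trsp-RIPKO 1, and 1 without the filter on dim probes. Scaling to each array's median in place of the 75th percentile moved the median of all genes by -0.24. It gave 2 members higher and 12 lower, against 2013 higher and 7264 lower over all genes. Xbp1, Eif2ak3, Ppp1r15a, Wfs1, Hsp90b1, Calr, Derl1 and Derl2 were called lower in that setting. Quantile normalization gave 4 members higher and 3 lower.

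Set against each other, Trsp-Ins1KO islets had 10 members called higher (31.2%) and 3 lower (9.38%) than Trsp-RIPKO islets. Of all genes 38.7% were called, 19.3% higher and 19.4% lower. The median difference was 0.12 for the members and -0.01 for all genes. The count of 13 came to 7 without TrspFF 1, TrspFF 2 or Trsp-RIPKO 2 and to 6 without Trsp-RIPKO 1 or Trsp-Ins1KO 1. It was 20 with normexp background correction (8 higher, 12 lower), or 62.5% of members against 63.7% of all genes (8330 higher, 3782 lower). With median scaling it was 15 (15 higher, 0 lower), or 46.9% of members against 42.3% of all genes (5702 higher, 2351 lower). The comparisons of the 2 knockouts with TrspFF share the TrspFF arrays, so an error in these arrays moves both alike.

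**Figure D1:**
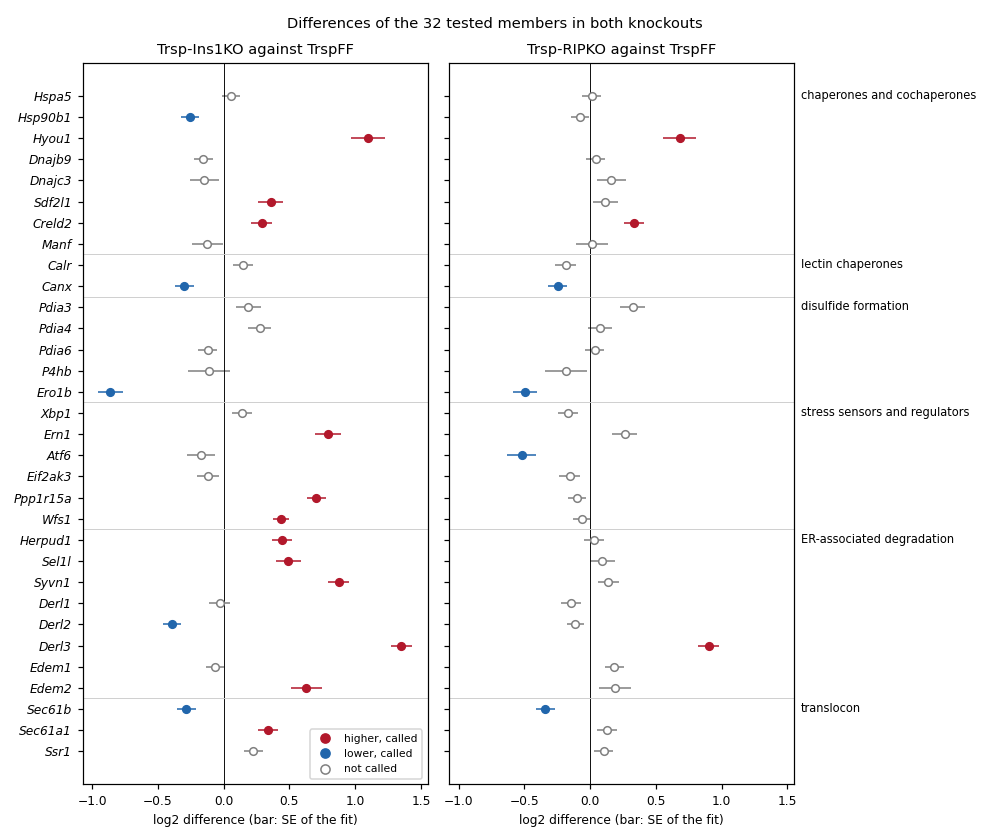
Log2 differences of the 32 tested members, by role, in Trsp-Ins1KO against TrspFF (left) and Trsp-RIPKO against TrspFF (right). Points are differences of group means, bars are the SE of the fit, and filled points were called (red higher, blue lower). Derl3 lies farthest to the right in both panels, at 1.35 and 0.90, and Ero1b is the lowest member on the left, at -0.86.

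Among sensors and regulators, Trsp-Ins1KO islets had more Ern1, Ppp1r15a and Wfs1 mRNA than TrspFF islets, and Xbp1, Atf6 and Eif2ak3 were not called. Ern1, which encodes the sensor IRE1, was at 3.34 and 3.38 in Trsp-Ins1KO, 2.71 and 2.94 in Trsp-RIPKO and 2.53 and 2.60 in TrspFF. Its Trsp-Ins1KO values lay above all others, and it rose by 0.79 against TrspFF (SE 0.0972, adjusted p = 0.00413) and was 0.53 higher than in Trsp-RIPKO (adjusted p = 0.0129). The difference of 0.26 between Trsp-RIPKO and TrspFF was not called (adjusted p = 0.0893; 0.40 and called with normexp background correction). The Ern1 difference between the knockouts fell to 0.18 and was not called with normexp background correction.

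Xbp1 encodes the transcription factor whose mRNA IRE1 splices, and it was at 5.59 and 5.52 in Trsp-Ins1KO, 5.23 and 5.27 in Trsp-RIPKO and 5.36 and 5.48 in TrspFF. The TrspFF values lay between those of the knockouts. Neither knockout was called against TrspFF (0.14, adjusted p = 0.198 in Trsp-Ins1KO, -0.09 with normexp background correction; -0.17, adjusted p = 0.136 in Trsp-RIPKO), but in Trsp-RIPKO it was called lower with median scaling (-0.41, adjusted p = 0.0171) and with normexp background correction (-0.20, adjusted p = 0.0469). Xbp1 was 0.31 higher in Trsp-Ins1KO than in Trsp-RIPKO (adjusted p = 0.0307), a call lost without any 1 of the 6 arrays (highest adjusted p = 0.118) and also lost, at 0.11, with normexp background correction. Spliced and unspliced Xbp1 were not told apart by the single probe.

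Atf6, the sensor that is itself cut into a transcription factor, was at -0.77 and -0.95 in Trsp-Ins1KO, -1.14 and -1.28 in Trsp-RIPKO and -0.77 and -0.60 in TrspFF. Both Trsp-RIPKO arrays were below the other 4. Atf6 fell by 0.52 in Trsp-RIPKO against TrspFF (SE 0.109, adjusted p = 0.0222), a call lost whichever array of Trsp-RIPKO or TrspFF was left out (highest adjusted p = 0.11), and its Trsp-Ins1KO difference of -0.17 was not called. Eif2ak3, which encodes PERK, was at 1.25 and 1.16 in Trsp-Ins1KO, 1.11 and 1.23 in Trsp-RIPKO and 1.29 and 1.36 in TrspFF. The TrspFF arrays were highest by little, and no comparison of Eif2ak3 was called (-0.12 in Trsp-Ins1KO and -0.15 in Trsp-RIPKO against TrspFF). With normexp background correction Eif2ak3 was called lower in both knockouts (-0.29, adjusted p = 0.0018 in Trsp-Ins1KO; -0.19, adjusted p = 0.0399 in Trsp-RIPKO), and with median scaling it was called lower in Trsp-RIPKO (-0.39, adjusted p = 0.021).

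Ppp1r15a encodes the phosphatase subunit that undoes PERK's block on translation and is itself a target of ATF4 and CHOP. It was at 2.56 and 2.48 in Trsp-Ins1KO, 1.69 and 1.75 in Trsp-RIPKO and 1.79 and 1.85 in TrspFF. The Trsp-Ins1KO arrays stood above the other 4, which lay close together. It rose by 0.70 in Trsp-Ins1KO against TrspFF (SE 0.071, adjusted p = 0.00282) and was 0.80 higher than in Trsp-RIPKO (SE 0.071, adjusted p = 0.00229), and both calls were kept without any 1 array and in all 10 other settings that keep the names of the scanner files. Normexp background correction gave 0.46 and 0.49 for these differences, and under the authors' own column names the first is -0.70. Its Trsp-RIPKO difference of -0.10 against TrspFF was not called.

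Wfs1, an ER membrane protein that is abundant in beta cells and mutated in Wolfram syndrome, followed the same order. Its values were 3.75 and 3.78 in Trsp-Ins1KO, 3.27 and 3.26 in Trsp-RIPKO and 3.35 and 3.31 in TrspFF, with no overlap between Trsp-Ins1KO and the others. Wfs1 rose by 0.44 in Trsp-Ins1KO against TrspFF (SE 0.0635, adjusted p = 0.00613; adjusted p = 0.05 without TrspFF 2) and was 0.50 higher than in Trsp-RIPKO (adjusted p = 0.00509). These differences were 0.20 and 0.25, both called, with normexp background correction. With median scaling Wfs1 was at -0.30 in Trsp-RIPKO against TrspFF (adjusted p = 0.0313), in place of -0.06.

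**Figure D2:**
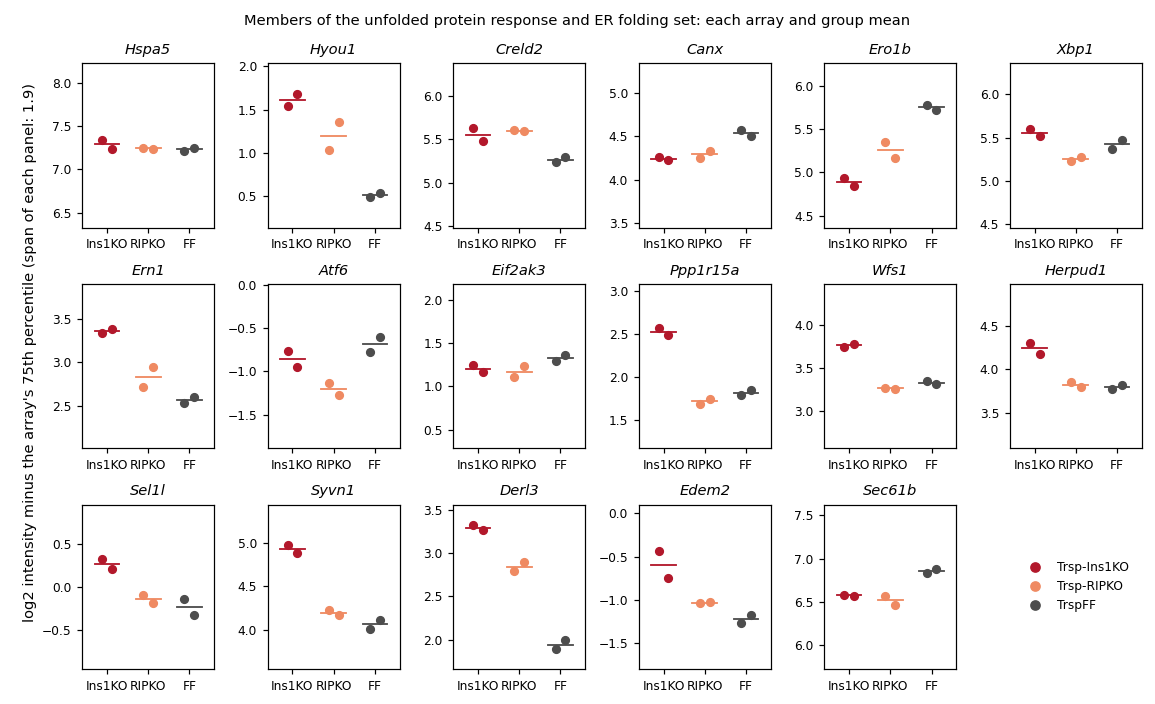
Levels of 17 members on each array, as log2 intensity minus the array's 75th percentile. Points are arrays, lines are group means, and every panel spans the same log2 range, in the order Trsp-Ins1KO, Trsp-RIPKO, TrspFF. Hspa5 is level across the groups, Derl3 and Hyou1 are higher in both knockouts than in TrspFF, Ppp1r15a, Wfs1 and Syvn1 are higher on the Trsp-Ins1KO arrays than on the other 4, and Ero1b is lower in both knockouts.

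Of the 8 tested chaperones and cochaperones, 3 rose and 1 fell in Trsp-Ins1KO (50% called, against 45.9% of all genes) and 2 rose and 0 fell in Trsp-RIPKO against TrspFF (25% called, against 36.4%). The Trsp-Ins1KO counts were 1 higher and 5 lower with normexp background correction. With 1 array left out 1 to 3 were higher in Trsp-Ins1KO and 0 to 2 in Trsp-RIPKO. Hspa5 encodes BiP, the main ER chaperone of the HSP70 family and the usual read-out of ER stress. It was at 7.34 and 7.24 in Trsp-Ins1KO, 7.25 and 7.24 in Trsp-RIPKO and 7.22 and 7.25 in TrspFF. The 3 groups overlapped, and the differences of 0.05 in Trsp-Ins1KO (SE 0.0705, adjusted p = 0.558) and 0.01 in Trsp-RIPKO (SE 0.0705, adjusted p = 0.916) were not called. Hspa5 was at -0.27 in Trsp-Ins1KO with normexp background correction (adjusted p = 0.00618) and at -0.23 in Trsp-RIPKO with median scaling (adjusted p = 0.099).

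Hyou1, a large HSP70 relative that releases ADP from BiP, was at 1.54 and 1.68 in Trsp-Ins1KO, 1.03 and 1.36 in Trsp-RIPKO and 0.49 and 0.54 in TrspFF. All knockout arrays were above both TrspFF arrays, and the Trsp-RIPKO arrays differed most from each other. Hyou1 rose by 1.10 in Trsp-Ins1KO (SE 0.128, adjusted p = 0.00373), a call kept without any 1 array, and by 0.68 in Trsp-RIPKO (SE 0.128, adjusted p = 0.0176), a call lost without Trsp-RIPKO 2 or either TrspFF array (highest adjusted p = 0.095). The Trsp-RIPKO difference was 0.39, still called, under normexp background correction.

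Creld2, a protein of the ER with a disulfide-exchange motif, was at 5.63 and 5.48 in Trsp-Ins1KO, 5.60 and 5.59 in Trsp-RIPKO and 5.23 and 5.29 in TrspFF. Both knockouts lay above TrspFF and overlapped each other. Creld2 rose by 0.29 in Trsp-Ins1KO (adjusted p = 0.034) and by 0.33 in Trsp-RIPKO (adjusted p = 0.0296). The Trsp-Ins1KO call was kept only without Trsp-Ins1KO 2 (highest adjusted p otherwise 0.167), and the Trsp-RIPKO call was lost whichever array of Trsp-RIPKO or TrspFF was left out (highest adjusted p = 0.156). With median scaling the Trsp-RIPKO difference was 0.09, and with normexp background correction the Trsp-Ins1KO difference was 0.01.

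Sdf2l1, which works with the co-chaperones of BiP, rose by 0.36 in Trsp-Ins1KO (adjusted p = 0.0318; lost without TrspFF 1, TrspFF 2 or Trsp-Ins1KO 1, highest adjusted p = 0.157; not called at 0.10 with normexp or 0.29 with median scaling). Hsp90b1, the HSP90 of the ER, fell by 0.25 in Trsp-Ins1KO (adjusted p = 0.0341; lost without any 1 TrspFF or Trsp-Ins1KO array, highest adjusted p = 0.156; -0.53 with normexp background correction, and -0.14, not called, with quantile normalization). Dnajb9 and Dnajc3, co-chaperones of BiP, and Manf, a secreted factor of stressed ER, were not called in any comparison. Their differences against TrspFF were -0.15, -0.15 and -0.12 in Trsp-Ins1KO and 0.04, 0.16 and 0.01 in Trsp-RIPKO. All 3 were called lower in Trsp-Ins1KO against TrspFF under normexp background correction, at -0.42, -0.37 and -0.40 in the same order. A second probe of Dnajb9 gave 0.16 in Trsp-Ins1KO and 0.53 in Trsp-RIPKO.

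The lectin chaperones calnexin (Canx) and calreticulin (Calr) hold glycoproteins while they fold. Canx was at 4.26 and 4.22 in Trsp-Ins1KO, 4.25 and 4.33 in Trsp-RIPKO and 4.57 and 4.51 in TrspFF. Both knockouts lay below TrspFF and overlapped each other. Canx fell by 0.30 in Trsp-Ins1KO (adjusted p = 0.0227; lost without TrspFF 1, TrspFF 2 or Trsp-Ins1KO 2, highest adjusted p = 0.134) and by 0.25 in Trsp-RIPKO (adjusted p = 0.0467), a call lost without any 1 of the 6 arrays (highest adjusted p = 0.224). Calr was not called against TrspFF (0.15 in Trsp-Ins1KO and -0.19 in Trsp-RIPKO) and was 0.33 higher in Trsp-Ins1KO than in Trsp-RIPKO (adjusted p = 0.0255), a call kept only without Trsp-Ins1KO 2 and at 0.02 with normexp background correction.

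Of the 5 genes of disulfide formation Ero1b alone was called against TrspFF, lower in both knockouts, where normexp background correction called 3 in each. Ero1b (Ero1lb in older annotation) encodes the oxidase that is abundant in islets and passes disulfides to the isomerases. It was at 4.94 and 4.84 in Trsp-Ins1KO, 5.35 and 5.16 in Trsp-RIPKO and 5.78 and 5.72 in TrspFF. The 3 groups did not overlap. Ero1b fell by 0.86 in Trsp-Ins1KO (SE 0.0917, adjusted p = 0.00318), a call kept without any 1 array and in the 10 settings that keep the scanner files' names, and by 0.50 in Trsp-RIPKO (SE 0.0917, adjusted p = 0.017), a call lost without Trsp-RIPKO 2 or either TrspFF array (highest adjusted p = 0.10). Its level was 0.36 lower in Trsp-Ins1KO than in Trsp-RIPKO (adjusted p = 0.0315), a call kept only without Trsp-RIPKO 2 (highest adjusted p otherwise 0.115) and lost at -0.20 with median scaling.

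The disulfide isomerases P4hb, Pdia3, Pdia4 and Pdia6, which make and rearrange the bonds, were not called in any comparison. Against TrspFF they were at -0.11, 0.19, 0.27 and -0.12 in Trsp-Ins1KO and at -0.18, 0.32, 0.07 and 0.04 in Trsp-RIPKO. Pdia3 in Trsp-RIPKO (adjusted p = 0.0529) and Pdia4 in Trsp-Ins1KO (adjusted p = 0.0549) came nearest to the threshold. With normexp background correction P4hb (-0.33, adjusted p = 0.00782) and Pdia6 (-0.37, adjusted p = 0.00023) were called lower in Trsp-Ins1KO, and in Trsp-RIPKO Pdia3 was called higher (0.22, adjusted p = 0.0269) and Pdia6 lower (-0.20, adjusted p = 0.0364). A second probe of Pdia6 gave -0.43 in Trsp-Ins1KO and -0.14 in Trsp-RIPKO.

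Of the 8 members of ER-associated degradation, 5 rose and 1 fell in Trsp-Ins1KO against TrspFF (75% called, against 45.9% of all genes), with a median of 0.47. In the direct comparison 5 were higher and 2 lower in Trsp-Ins1KO than in Trsp-RIPKO (87.5% called, against 38.7% of all genes), with a median of 0.41. In Trsp-RIPKO against TrspFF 1 rose and 0 fell (12.5% called, against 36.4%), with a median of 0.11 (-0.12 with median scaling). The count of 5 higher in Trsp-Ins1KO against TrspFF was the same with normexp, quantile and median scaling, with 2, 1 and 1 lower in that order, but it came to 3 without TrspFF 1 and 2 without TrspFF 2. The Trsp-Ins1KO medians with normexp background correction were 0.29 against TrspFF and 0.09 against Trsp-RIPKO. The counts against Trsp-RIPKO ranged from 2 to 5 higher, with 0 lower, when 1 array was left out.

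Derl3 encodes a derlin, a membrane protein of the channel that passes misfolded chains to the cytosol, and is known to be high in secretory cells such as acinar and plasma cells. It was at 3.33 and 3.26 in Trsp-Ins1KO, 2.79 and 2.90 in Trsp-RIPKO and 1.89 and 1.99 in TrspFF. The groups did not overlap, and no member differed more from TrspFF in either knockout. Derl3 rose by 1.35 in Trsp-Ins1KO (SE 0.0795, adjusted p = 0.0011) and by 0.90 in Trsp-RIPKO (SE 0.0795, adjusted p = 0.00458). Both calls were kept without any 1 array and in the 10 settings that keep the scanner files' names. The level was 0.45 higher in Trsp-Ins1KO than in Trsp-RIPKO (adjusted p = 0.0117; adjusted p = 0.0565 without Trsp-RIPKO 1) and -0.06 with normexp background correction. Like Derl3, most acinar markers given above rose in both knockouts against TrspFF. In the direct comparison 1 of 17 acinar markers was higher and 5 were lower in Trsp-Ins1KO than in Trsp-RIPKO, with a median of -0.13. With normexp background correction these were 5 and 5, with a median of -0.01. The part of acinar cells was not tested.

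The other derlins did not follow it. Derl2 fell by 0.39 in Trsp-Ins1KO against TrspFF (SE 0.0663, adjusted p = 0.0089; adjusted p = 0.0704 without TrspFF 1), and its 2 other probes gave -0.63 and -0.77. In Trsp-RIPKO these 3 probes gave -0.11, -0.39 and -0.55, of which the tested first was not called. Derl2 was 0.28 lower in Trsp-Ins1KO than in Trsp-RIPKO (adjusted p = 0.0268), a call lost without any 1 of the 6 arrays (highest adjusted p = 0.103). Derl1 was at -0.03 in Trsp-Ins1KO and -0.14 in Trsp-RIPKO and was not called (-0.29 and -0.22, both called, with normexp background correction), and a second probe gave 0.14 and 0.27.

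Syvn1 encodes HRD1, the ubiquitin ligase at the core of the degradation channel. It was at 4.98 and 4.89 in Trsp-Ins1KO, 4.23 and 4.17 in Trsp-RIPKO and 4.01 and 4.12 in TrspFF. The Trsp-Ins1KO arrays were far above the other 4. Syvn1 rose by 0.87 in Trsp-Ins1KO against TrspFF (SE 0.0792, adjusted p = 0.00235) and was 0.74 higher than in Trsp-RIPKO (SE 0.0792, adjusted p = 0.00345), with both calls kept without any 1 array and in the 10 settings that keep the scanner files' names. The Trsp-RIPKO difference of 0.14 against TrspFF was not called (adjusted p = 0.223).

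Sel1l, the adaptor that holds HRD1 in place, was at 0.32 and 0.20 in Trsp-Ins1KO, -0.09 and -0.18 in Trsp-RIPKO and -0.14 and -0.32 in TrspFF. The Trsp-Ins1KO arrays lay above the other 4, which overlapped. Sel1l rose by 0.49 in Trsp-Ins1KO against TrspFF (SE 0.0954, adjusted p = 0.013; adjusted p = 0.0724 without TrspFF 2) and was 0.40 higher than in Trsp-RIPKO (adjusted p = 0.0273; lost without Trsp-RIPKO 1, Trsp-RIPKO 2 or Trsp-Ins1KO 1, highest adjusted p = 0.114).

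Herpud1, an ER membrane protein that brings HRD1 complexes together and is itself induced by ER stress, was at 4.30 and 4.18 in Trsp-Ins1KO, 3.85 and 3.80 in Trsp-RIPKO and 3.77 and 3.82 in TrspFF. Only Trsp-Ins1KO stood apart. Herpud1 rose by 0.45 in Trsp-Ins1KO against TrspFF (SE 0.0764, adjusted p = 0.00921; lost when either TrspFF array was left out, highest adjusted p = 0.0667) and was 0.42 higher than in Trsp-RIPKO (adjusted p = 0.0129; adjusted p = 0.0633 without Trsp-RIPKO 2). The differences from TrspFF were smaller but still called with normexp background correction, at 0.26 for Herpud1, 0.31 for Sel1l and 0.58 for Syvn1.

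Edem2 starts the trimming of mannose that marks a glycoprotein for degradation, and it was at -0.43 and -0.75 in Trsp-Ins1KO, -1.04 and -1.03 in Trsp-RIPKO and -1.26 and -1.18 in TrspFF. The 3 groups did not overlap, and the Trsp-Ins1KO arrays were the farthest apart. It rose by 0.63 in Trsp-Ins1KO against TrspFF (SE 0.12, adjusted p = 0.0123; lost when either TrspFF array was left out, highest adjusted p = 0.0727) and was 0.44 higher than in Trsp-RIPKO (adjusted p = 0.0392; kept only without Trsp-Ins1KO 2, highest adjusted p otherwise 0.132). Its relative Edem1 was not called against TrspFF (-0.07 in Trsp-Ins1KO and 0.18 in Trsp-RIPKO) and was 0.25 lower in Trsp-Ins1KO than in Trsp-RIPKO (adjusted p = 0.0436; lost without any 1 of the 6 arrays, highest adjusted p = 0.157).

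The translocon is the channel through which new chains enter the ER, and its 3 members differed among themselves. Sec61b, its small subunit, was at 6.59 and 6.56 in Trsp-Ins1KO, 6.57 and 6.47 in Trsp-RIPKO and 6.84 and 6.88 in TrspFF. Both knockouts lay below TrspFF and overlapped each other. Sec61b fell by 0.28 in Trsp-Ins1KO (adjusted p = 0.0274) and by 0.34 in Trsp-RIPKO (adjusted p = 0.0222), and each call was lost without any 1 array of its 2 groups (highest adjusted p = 0.144 and 0.123). A second Sec61b probe gave -0.87 and -0.64. Sec61a1, the pore, rose by 0.34 in Trsp-Ins1KO (adjusted p = 0.0201; lost without TrspFF 1, TrspFF 2 or Trsp-Ins1KO 1, highest adjusted p = 0.122) and was at 0.12 in Trsp-RIPKO (not called). With normexp background correction Sec61a1 was at 0.12, not called, in Trsp-Ins1KO and was called higher in Trsp-RIPKO (0.42, adjusted p = 0.00016), and with median scaling it was at 0.27 in Trsp-Ins1KO, not called. Ssr1, a subunit of the translocon-associated complex, was at 0.23 and 0.10 in Trsp-Ins1KO and Trsp-RIPKO and was not called, and its 2 other probes lay between -0.05 and 0.05 in both.

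Members with the same promoter element moved in both directions. Of the 10 with an ERSE, Derl3, Syvn1 and Creld2 rose and Ero1b, Canx and Hsp90b1 fell in Trsp-Ins1KO against TrspFF, and Hspa5, Calr, Dnajc3 and Pdia6 were not called. Under normexp background correction Creld2 was not called there, and Hspa5, Dnajc3 and Pdia6 were called lower. In Trsp-RIPKO against TrspFF Derl3 and Creld2 rose and Ero1b and Canx fell. The 17 tested members with a window and no ERSE held 7 rises and 2 falls in Trsp-Ins1KO, and 0 rises and 1 fall in Trsp-RIPKO. With and without an ERSE, 60% and 52.9% were called in Trsp-Ins1KO, against 45.9% of all genes. In Trsp-RIPKO 40% and 5.88% were called, against 36.4% of all genes. These Trsp-RIPKO shares depended on the setting. With median scaling Xbp1, Eif2ak3, Ppp1r15a, Wfs1 and Derl2, without an ERSE, were also called lower. Of those with an ERSE, Hsp90b1 and Calr were also called lower and Creld2 was not called. Normexp background correction also called Pdia3, Xbp1, Ern1, Eif2ak3, Edem1 and Ssr1, without an ERSE, and Hsp90b1 and Pdia6, with one. Over the whole array 18 tested genes had an ERSE window, and 10 of them were these members. Of the 8 others 3 rose and 2 fell in Trsp-Ins1KO, and 2 rose and 0 fell in Trsp-RIPKO.

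**Figure D3:**
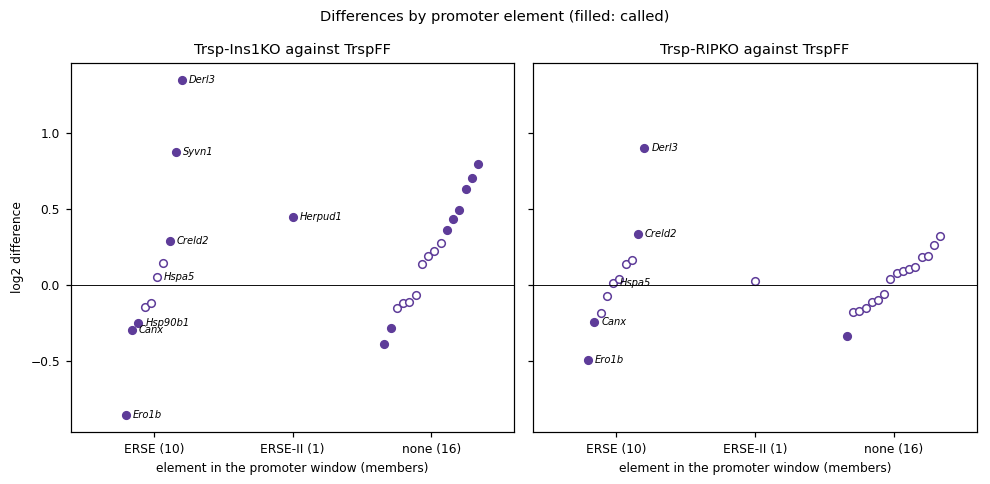
Log2 differences of the 27 tested members with a promoter window, by the element found there, in Trsp-Ins1KO against TrspFF (left) and Trsp-RIPKO against TrspFF (right). Each point is a gene, spread sideways by rank, and filled points were called. The ERSE column runs from Ero1b (-0.86 and -0.50) to Derl3 (1.35 and 0.90), with called genes at both ends.

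Genes of the same pathways outside the members were read from 7 lists of 145 genes, of which 141 were tested. The lists were chosen with earlier results of these data known. In Trsp-Ins1KO against TrspFF 47 rose and 27 fell (52.5% called, against 45.9% of all genes). In Trsp-RIPKO against TrspFF 23 rose and 19 fell (29.8% called, against 36.4%). By list, the share called ran from 39.4% for ER folding to 85.7% for the ATF4 and CHOP branch in Trsp-Ins1KO. In Trsp-RIPKO it ran from 19% for ER-associated degradation to 64.3% for the ATF4 and CHOP branch. With normexp background correction the split in Trsp-Ins1KO turned to 39 higher and 52 lower, against 9193 higher and 4764 lower over all genes. With median scaling that in Trsp-RIPKO turned to 6 higher and 59 lower, against 2013 higher and 7264 lower over all genes. The lists differed most for the branch of ATF4 and CHOP, the arm downstream of PERK and of other kinases that restrain translation. Of its 14 tested genes 12 rose and 0 fell in Trsp-Ins1KO (median 0.66), and 8 rose and 1 fell in Trsp-RIPKO (median 0.25; 3 higher, 3 lower and a median of 0.01 with median scaling). Trib3, a pseudokinase that restrains this response, rose by 2.20 in Trsp-Ins1KO (SE 0.0941, adjusted p = 0.000533) and by 0.84 in Trsp-RIPKO. Nupr1, a stress-induced chromatin protein, rose by 1.96 in Trsp-Ins1KO, and Sesn2, a stress-induced regulator of growth signalling, rose by 0.73 in Trsp-RIPKO. Ddit3, which encodes CHOP itself, fell by 0.42 in Trsp-RIPKO (adjusted p = 0.0456) and was at -0.13 in Trsp-Ins1KO, not called.

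In the wider list of ER-associated degradation, 9 of 21 genes rose and 4 fell in Trsp-Ins1KO, and 2 rose and 2 fell in Trsp-RIPKO (1 and 10 with median scaling), where 1 of the rises, Ubxn4, was well above background on 0 of 2 TrspFF arrays. Nploc4, a cofactor of the extraction ATPase p97, rose by 0.74 and Os9, a lectin that brings glycoproteins to HRD1, rose by 0.66 in Trsp-Ins1KO, while the mannosidase Edem3 fell by 0.61 and the lectin Erlec1 by 0.46. The Trsp-Ins1KO counts with normexp background correction were 5 and 4. Of this list 61.9% were called in Trsp-Ins1KO and 19% in Trsp-RIPKO, against 45.9% and 36.4% of all genes. For the wider list of ER folding these shares were 39.4% and 24.2%. The wider list of ER folding was mixed, with 7 of 33 genes higher and 6 lower in Trsp-Ins1KO (9 and 12 with normexp background correction) and 5 higher and 3 lower in Trsp-RIPKO (2 and 15 with median scaling). The sulfhydryl oxidase Qsox1 rose by 1.38 and the glucosidase subunit Prkcsh by 0.74 in Trsp-Ins1KO, where the chaperone Hspa13 fell by 0.69 and Erp44, which retrieves folding enzymes from the Golgi, fell by 0.64. In Trsp-RIPKO the prolyl isomerase Fkbp11 rose by 2.96 and Pdia2, the disulfide isomerase of the exocrine pancreas, by 1.56. In Trsp-Ins1KO against TrspFF Fkbp11 was at 0.46 (adjusted p = 0.179, not called) and Pdia2 rose by 0.62. The acinar markers had medians of 1.36 in Trsp-Ins1KO and 1.56 in Trsp-RIPKO against TrspFF. The part of acinar cells was not tested.

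In the wider list of translocation and signal peptide removal 2 of 22 genes rose and 8 fell in Trsp-Ins1KO (2 and 17 with normexp background correction), and 3 rose and 4 fell in Trsp-RIPKO (0 and 11 with median scaling, 4 and 3 with quantile normalization). Ssr2 fell by 0.60 and the signal peptidase subunit Sec11a by 0.47 in Trsp-Ins1KO, where Tram2 rose by 0.99. The oligosaccharyltransferase, which attaches sugars to new chains, had 3 of 12 subunits higher and 4 lower in Trsp-Ins1KO (1 and 8 with normexp background correction), with Ddost at 0.55 and Tusc3 at -0.71, and 2 higher and 3 lower in Trsp-RIPKO (0 and 6 with median scaling). In ER to Golgi transport 8 of 25 genes rose and 4 fell in Trsp-Ins1KO (4 and 8 with normexp background correction), with the retrieval receptor Kdelr3 at 0.96 and the coat protein Sec24a at -0.53, and 1 rose and 4 fell in Trsp-RIPKO (0 and 8 with median scaling). Other stress transducers, such as relatives of ATF6, had 6 of 14 genes higher and 1 lower in Trsp-Ins1KO, with Creb3l1 at 1.51, and 2 higher and 2 lower in Trsp-RIPKO (0 and 6 with median scaling). In the order given, 45.5%, 58.3%, 48% and 50% of these lists were called in Trsp-Ins1KO, against 45.9% of all genes. In Trsp-RIPKO 31.8%, 41.7%, 20% and 28.6% were called, against 36.4%. Over all genes normexp gave 9193 higher and 4764 lower in Trsp-Ins1KO, and median scaling 2013 higher and 7264 lower in Trsp-RIPKO.

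**Figure D4:**
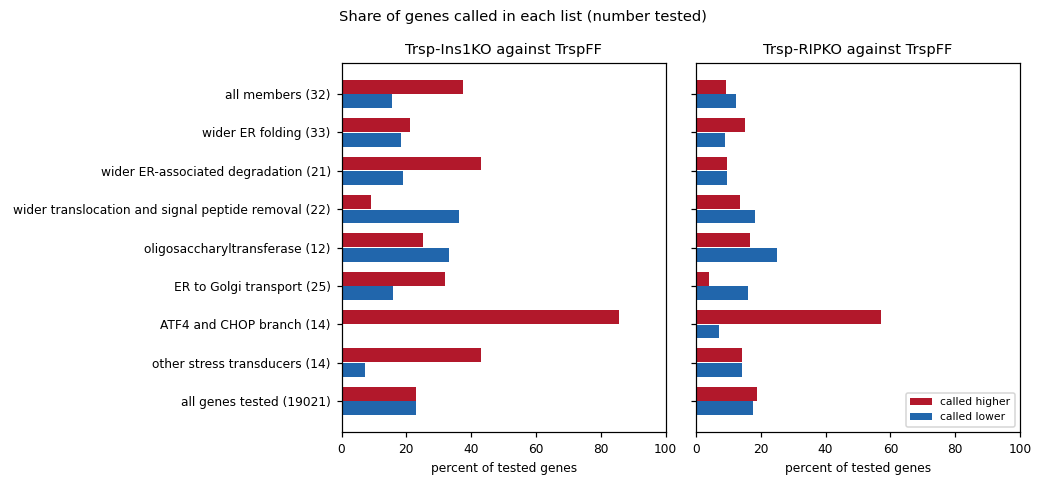
Percent of tested genes called higher (red) and lower (blue) among the members, in 7 wider lists and over all genes tested, in Trsp-Ins1KO against TrspFF (left) and Trsp-RIPKO against TrspFF (right), with the number tested in brackets. Bars start at 0. The ATF4 and CHOP branch has the longest red bars, at 85.7% and 57.1%, against 23% and 18.9% for all genes.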

How the data were processed

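Messenger RNA of mouse islets was measured on 6 Agilent 1-colour arrays, 2 per group by the sample titles. Per the file headers, the authors read the arrays with Feature Extraction 10.7.3.1 (array design 026655). Scanner files as deposited hold a processed intensity per spot, background-subtracted and not scaled between arrays, with 0 or 1 flags for well above background, saturation and outliers, and median intensity of spot and background. A deposited table of the authors' log2 values served as an alternative. It matched log2 intensity scaled per array and centred per probe, and its method is not given in the sources used. Its columns named Trsp-Ins1KO had medians of -0.0795 and -0.0453, those named Trsp-RIPKO 0.0115 and -0.0291, and those named TrspFF 0.0866 and 0.141.

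Here each array's 75th percentile was subtracted from log2 processed intensity. Control and outlier spots were left out, and spots of 1 probe were averaged (39426 of 39429 probes kept). RefSeq accessions named 26053 probes (66.1%). Probes had to be well above background on both arrays of 1 or more groups, and the brightest of 23199 entering probes stood for each of 19021 genes. limma 3.58.1 (R 4.3.3) fitted a mean per group over all 6 arrays (lmFit, eBayes), with two-sided tests and Benjamini-Hochberg adjustment over all genes. The fit was tested on simulated data. Members and lists were chosen with earlier results of these data known. Named per array were the sensors, Xbp1, Hspa5 and up to 8 members with the largest called difference in each contrast, and from each wider list up to 2 called genes per direction and contrast. Sex genes, second probes and the Trsp-Ins1KO values of Ddit3, Fkbp11 and Pdia2 were named after their values were seen. Alternatives were normexp (offset 50), quantile and median scaling, other filters, the mean over probes, a trended robust fit, fits of 2 groups, a replicate block, the authors' table and leaving out each array. Reading and plots used Python 3.11.15, pandas 2.3.3, numpy 2.4.6 and matplotlib 3.10.9.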

Additional observations from a re-analysis of the deposited data

Results flagged for a closer look

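The 2 knockouts were compared with each other directly, which is the test of whether their changes against the shared TrspFF arrays differ. For 13 of 32 members (40.6%) the difference passed limma's adjusted threshold, a share near the 38.7% of all genes tested. Trsp-Ins1KO was higher than Trsp-RIPKO (log2) by 0.80 for Ppp1r15a, 0.74 for Syvn1, 0.53 for Ern1, 0.50 for Wfs1, 0.45 for Derl3, 0.44 for Edem2, 0.42 for Herpud1, 0.40 for Sel1l, 0.33 for Calr and 0.31 for Xbp1. The difference was -0.25 for Edem1, -0.28 for Derl2 and -0.36 for Ero1b. Only the calls of Ppp1r15a, Syvn1, Ern1 and Wfs1 were kept without any 1 array. Trsp-RIPKO alone filled slide 2, so slide and genotype cannot be told apart in these differences.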

How the results depend on the processing

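Of 595 values of 35 differences of members described array by array, recomputed under other settings, 473 kept their direction and their side of the threshold, 66 lost the call, 15 gained one and 41 changed sign. In Trsp-Ins1KO against TrspFF the count of members called was 17, and it ranged from 7 to 16 with 1 array left out. In Trsp-RIPKO against TrspFF it was 7, with 17 under normexp background correction, 14 under median scaling, 1 without the filter on dim probes, 12 with a trended robust fit, 13 under the authors' own column names and 1 to 7 with 1 array left out. In Trsp-Ins1KO against Trsp-RIPKO it was 13, with 20 under normexp background correction, 7 without the filter, 22 with a trended robust fit, 7 in a fit of these groups alone, 7 (4 higher, 3 lower) under the authors' own names and 6 to 9 with 1 array left out. The share of all genes called moved as well. In Trsp-RIPKO against TrspFF it was 36.4%, with 49.8% under normexp background correction and 48.8% under median scaling. In Trsp-Ins1KO against Trsp-RIPKO it was 38.7%, with 63.7% under normexp background correction. Scaling to the median moved the median of all genes by -0.24 in Trsp-RIPKO and -0.08 in Trsp-Ins1KO against TrspFF, and normexp moved it to 0.16 in Trsp-Ins1KO. The replicate numbers did not pair the samples (correlations of 0.093, 0.079 and 0.065 between same-numbered deviations), and with them as a replicate block 16, 7 and 12 members were called in Trsp-Ins1KO against TrspFF, Trsp-RIPKO against TrspFF and Trsp-Ins1KO against Trsp-RIPKO.

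Under the authors' own column names these values changed sign. In Trsp-Ins1KO against TrspFF they were Xbp1 -0.14, Ern1 -0.79, Atf6 0.17, Eif2ak3 0.12, Hspa5 -0.054, Derl3 -1.35, Hyou1 -1.10, Syvn1 -0.87, Ero1b 0.86, Ppp1r15a -0.70, Edem2 -0.63 and Sel1l -0.49. In Trsp-RIPKO against TrspFF they were Ern1 -0.53, Hspa5 -0.043, Derl3 -0.45, Hyou1 -0.42, Ero1b 0.37 and Canx 0.052, and in Trsp-Ins1KO against Trsp-RIPKO they were Ern1 -0.26, Hspa5 -0.011, Syvn1 -0.14, Derl3 -0.90, Edem2 -0.19, Herpud1 -0.028 and Sel1l -0.091. The construction of that setting, which exchanges 2 groups, gives these signs.

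The other changes of sign were in small differences, apart from that of Derl3, and the cause was not tested. Hspa5 turned to -0.27 with normexp, -0.10 with quantile and -0.016 with median scaling in Trsp-Ins1KO against TrspFF. In Trsp-RIPKO against TrspFF it turned to -0.080, -0.086 and -0.23 in the same settings, and it ranged from -0.0061 to 0.028 with 1 array left out. In Trsp-Ins1KO against Trsp-RIPKO Hspa5 turned to -0.19 with normexp and -0.010 with quantile normalization, and it ranged from -0.0078 to 0.095 with 1 array left out. Xbp1 turned to -0.089 with normexp in Trsp-Ins1KO against TrspFF. Eif2ak3 turned to -0.098 with normexp and -0.027 with quantile normalization in Trsp-Ins1KO against Trsp-RIPKO, and it ranged from -0.028 to 0.098 with 1 array left out. Derl3 turned to -0.057 with normexp in Trsp-Ins1KO against Trsp-RIPKO. With 2 arrays per group, the number of arrays limits the precision of every value.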
